A study of Mus musculus with 8 samples.

Results

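Zinc, copper and iron are needed by every cell and are toxic in excess, and a compact set of transporters, binding proteins and sensors handles them. Transcripts of 43 such genes were followed in mouse brain cells sorted for GLAST, the glutamate transporter encoded by Slc1a3, at postnatal day 8 (P8) and at birth (postnatal day 0, P0). Membership was set by a rule on gene symbols. It takes all numbered members of the Slc39a, Slc30a, Slc31a, Slc11a and Slc40a families in the table, together with Mt1, Mt2, Mt3, Tfrc, Trf, Fth1, Ftl1, Cp, Heph, Hmox1, Aco1, Ireb2, Atp7a and Atp7b. The rule found 43 of 23284 genes, and 41 of them had enough reads to be tested. Slc30a8 and Slc39a5 did not.

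Both ages came from wild type C57BL/6J mice, with no treatment named, and from whole brain dissociated by enzymes and by mechanical force. Cells were held with anti-GLAST (ASCA-1) beads on a magnet, a sort that keeps whatever the beads hold and that no unsorted or GLAST-negative library here can check. The P8 cells are labelled astrocyte precursors and the P0 cells radial glia, the neural progenitors whose processes span the wall of the developing brain. There were 4 libraries per age, named here P8 1 to P8 4 and P0 1 to P0 4. The labels do not say whether these were separate animals, litters or pools, so p-values measure only the spread between libraries, which may be technical.

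Zinc enters the cytosol through the ZIP proteins (Slc39a genes) and leaves it, for the outside or for vesicles and organelles, through the ZnT proteins (Slc30a genes), while metallothioneins bind it with copper in between. Copper enters through Slc31a1 and is passed to the pumps Atp7a and Atp7b, which load it into enzymes of the secretory pathway or push it out of the cell. Iron arrives bound to transferrin (Trf), enters with the transferrin receptor (Tfrc), is stored in ferritin (Fth1 and Ftl1) and leaves through ferroportin (Slc40a1), helped by the copper enzymes ceruloplasmin (Cp) and hephaestin (Heph). In the brain, astrocytes are known for metallothioneins and for a membrane-bound form of ceruloplasmin, the choroid plexus for handling copper and transferrin at the border with cerebrospinal fluid, and microglia for iron taken from engulfed cells.

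Libraries held between 30708719 and 94308235 counts, with P0 2 the shallowest, and between 16992 and 18666 genes with at least 1 read. Astrocyte markers fitted the P8 label, with 9 of 10 called higher at P8 and a summed level of 14470 to 16939 CPM (the count as a share of the library total, scaled to a fixed total) at P8 and 1441 to 2133 CPM at P0. The data went in part against the radial glia label of the P0 cells. Slc1a3, the gene of the sort antigen, was at 3718 to 5029 CPM at P8 and at 228 to 331 CPM at P0. Of 8 radial glia markers, 7 were called higher at P8, and their sum was 3790 to 4845 CPM at P8 and 1368 to 2089 CPM at P0. All 9 choroid plexus markers were called lower at P8, with a sum of 206 to 3131 CPM at P8 and 27348 to 65323 CPM at P0, and none of them was at 0 in any library. Endothelial markers moved the same way (8 of 9 lower, 258 to 551 CPM at P8 and 1552 to 2210 CPM at P0). So did 6 of 9 pericyte, smooth muscle and meningeal markers, with a sum of 434 to 1136 CPM at P8 and 4369 to 8218 CPM at P0. In this list Rgs5, Acta2 and Tagln were not called, and Col1a1, Col1a2 and Col3a1 made up most of the sums. For these and later marker counts, the shares over all tested genes were 24.5% called higher and 25% lower. In bulk RNA of this kind, fewer cells of a type and less RNA per cell cannot be told apart. The groups are therefore called by age below.

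Of the 41 tested genes, 11 were called higher at P8, 10 lower and 20 were not called (edgeR quasi-likelihood test on the deposited counts, Benjamini-Hochberg adjusted p under 0.05). The share called, 51.2%, was close to the 49.5% of all 16808 tested genes, of which 24.5% were higher and 25% lower. The libraries of the ages did not overlap for 23 of the 41, against 47.2% of all tested genes. The median log2 fold change, P8 over P0, was 0.20 for the 41 and 0.04 for all tested genes. The metal genes were thus called about as often as genes in general. By branch, all 5 called genes of copper transport and the ferroxidases were lower at P8, whereas in iron transport, storage and sensing 2 of 10 were higher, none was lower and 8 were not called. The ZIP family was split, with 6 higher, 4 lower and 3 not called. A fitted change of at least 2-fold was seen for 5 higher and 6 lower genes, and the other 10 called genes stayed under it.

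**Figure D1:**
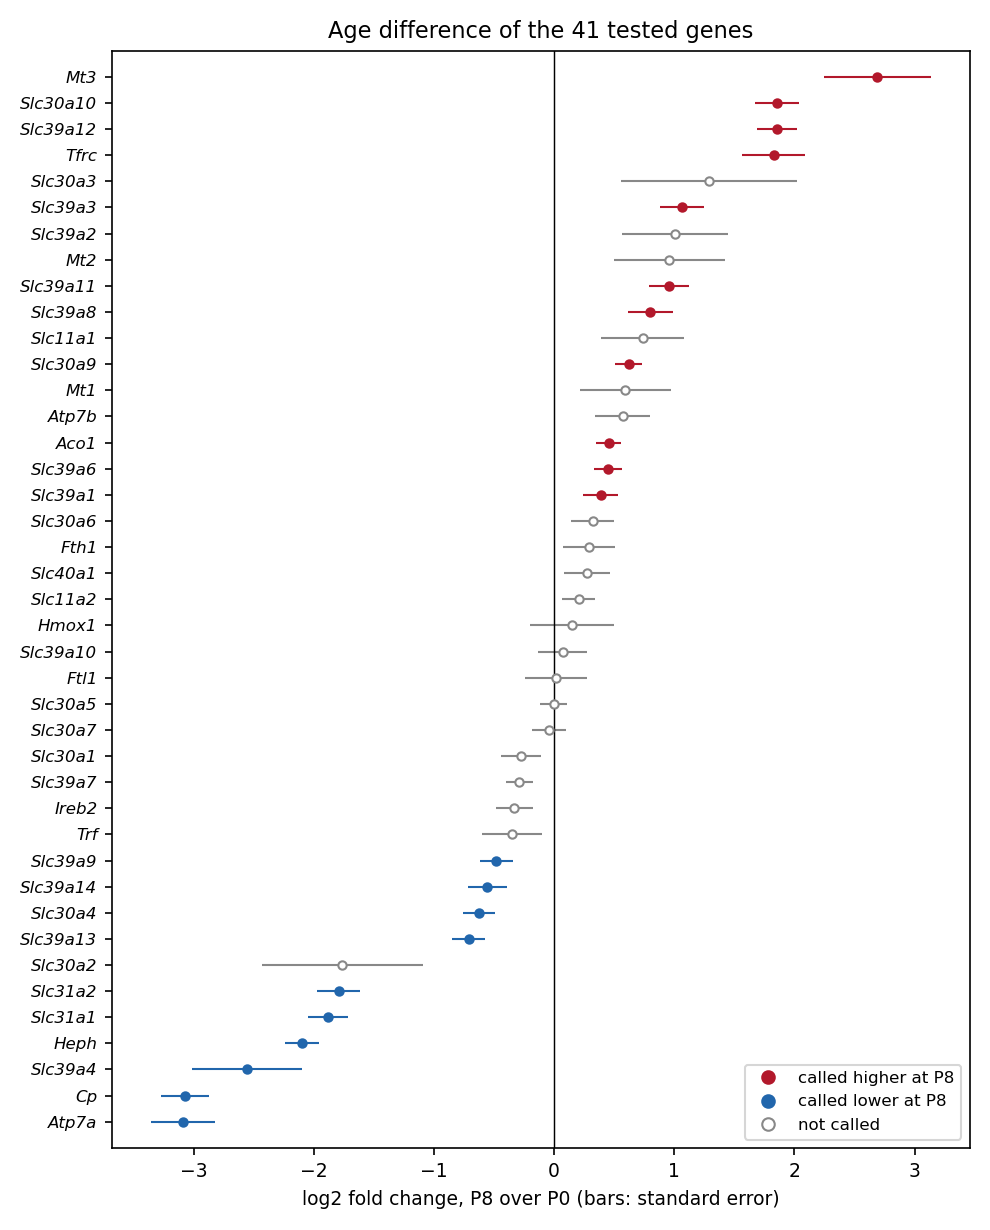
Fitted log2 fold changes, P8 over P0, of the 41 tested metal genes on the x axis, 1 gene per line, with bars for the standard error of the edgeR fit over 4 libraries per age. Filled red points are the 11 genes called higher at P8, filled blue points the 10 called lower and open grey points the 20 not called. Mt3 stands at the top with 2.69 and Atp7a at the bottom with -3.09.

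The metallothioneins, small proteins that buffer zinc and copper, were at high levels at both ages, and Mt3 was the 1 of 3 that was called. Mt3, the family member enriched in brain, stood at 1508, 1172, 642 and 1276 RPKM in P8 1 to P8 4, against 161, 84.6, 155 and 357 RPKM in P0 1 to P0 4. Every P8 library lay above every P0 library, with the lowest P8 value in P8 3 and the highest P0 value in P0 4. Its log2 fold change was 2.69 with a standard error of 0.44 (edgeR, adjusted p = 0.000837), and its fitted fold was 6.45. RPKM is the count scaled to gene length and to the library total, which allows levels of different genes to be set side by side. Mt1, a metallothionein made in most tissues, had 365, 381, 229 and 372 RPKM in P8 1 to P8 4, against 286, 86.6, 216 and 359 RPKM in P0 1 to P0 4. The ages overlapped, with P0 4 inside the P8 range, and the log2 fold change was 0.59 with a standard error of 0.38 (edgeR, adjusted p = 0.220). Mt2, its close paralog, had 158, 189, 104 and 163 RPKM in P8 1 to P8 4, against 87.9, 20.9, 84.6 and 141 RPKM in P0 1 to P0 4. P0 4 again reached above P8 3, and the log2 fold change was 0.96 with a standard error of 0.46 (edgeR, adjusted p = 0.111). Without P0 4 Mt2 was called higher (edgeR, adjusted p = 0.0408). All 3 genes shared the order of the P0 libraries at both ends, lowest in P0 2 and highest in P0 4, and all were lowest in P8 3 among P8 libraries. The ferritin genes Fth1 and Ftl1 had the same ends at P0, and Fth1 was also lowest in P8 3. P0 2 also had the lowest total count. Without it the log2 fold changes were 2.45 for Mt3, 0.32 for Mt1 and 0.64 for Mt2, and Mt3 was still called. Astrocyte markers (9 of 10, with Gja1 not called) and neuron markers (8 of 8) were called higher at P8 too. The part of these markers in the Mt3 difference was not tested.

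The makeup of the metallothionein pool was described by shares. Mt3 made up 69.4 ± 3.74% of the summed metallothionein RPKM at P8 and 37.4 ± 6.50% at P0 (SD, n = 4 each), with 65.8% as the lowest P8 library and 44.1% as the highest P0 library. The summed level itself was 1640 ± 460 RPKM at P8 and 509.8 ± 274 RPKM at P0, and P8 3, at 975 RPKM, came closest to P0 4, at 857 RPKM. Mt1 stood at 2.02 to 2.31 times Mt2 in P8 libraries and at 2.54 to 4.15 times in P0 libraries, with no overlap. The 3 genes lie next to each other on the plus strand of chromosome 8 (NCBIM37, the assembly that mm9 stands for), Mt3 at 96676507 to 96678048, Mt2 at 96696518 to 96697467 and Mt1 at 96702989 to 96704225. How reads shared by these related genes were assigned is not given in the sources used here. Mtf1, the zinc-sensing transcription factor that drives Mt1 and Mt2, averaged 36.6 CPM at P8 and 47.3 CPM at P0 and was not called (edgeR, adjusted p = 0.207).

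**Figure D2:**
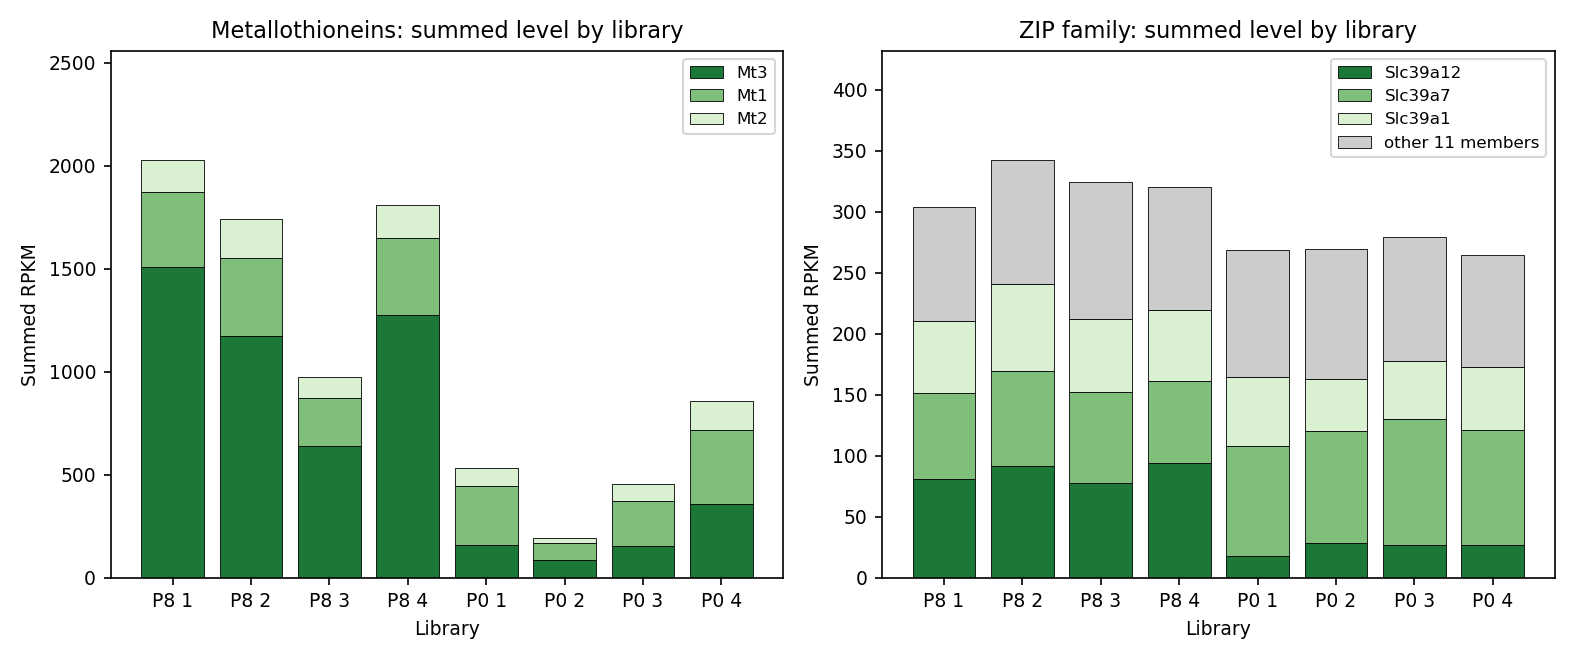
Summed RPKM (y axes, from 0) of the 3 metallothioneins on the left and of the 14 ZIP genes on the right, in each of the 4 P8 and 4 P0 libraries (x axes), stacked by gene. Mt3 takes the largest part of every P8 bar and Mt1 of every P0 bar, and Slc39a12 takes 26.6% of the ZIP sum at P8 and 9.34% at P0 on average.

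Among the zinc importers, the ZIP genes, Slc39a12 had the highest mean at P8 and Slc39a7 at P0. Slc39a12, which encodes the importer ZIP12 known for its expression in brain, stood at 80.9, 91.8, 77.3 and 93.8 RPKM in P8 1 to P8 4, against 18.04, 28.9, 26.9 and 27.3 RPKM in P0 1 to P0 4. The lowest P8 library was well above the highest P0 library, the log2 fold change was 1.85 with a standard error of 0.17 (edgeR, adjusted p = 2.13e-05), and the gene lies on chromosome 2, plus strand, from 14309943 to 14416602. Its share of the summed ZIP level was 26.6 ± 2.21% at P8 and 9.34 ± 1.81% at P0 (SD, n = 4 each). Astrocyte markers, in the values above, moved with it, and their part in the difference was not tested.

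The other 5 ZIP genes called higher differed by less. Slc39a3, an importer at the plasma membrane, had 12.97, 11.7, 15.9 and 12.3 RPKM in P8 1 to P8 4, against 8.91, 5.66, 6.12 and 5.93 RPKM in P0 1 to P0 4. No P0 library reached the lowest P8 library, although P0 1 stood above the other P0 libraries, and the log2 fold change was 1.07 with a standard error of 0.18 (edgeR, adjusted p = 0.000986). Slc39a11, the most divergent ZIP protein, had 18.7, 17.3, 17.8 and 16.9 RPKM in P8 1 to P8 4, against 11.8, 6.99, 10.1 and 9.58 RPKM in P0 1 to P0 4. The P8 values were tight and all above P0, and the log2 fold change was 0.96 with a standard error of 0.17 (edgeR, adjusted p = 0.00125). Slc39a8, an importer of zinc and manganese, had 8.25, 12.4, 9.11 and 11.6 RPKM in P8 1 to P8 4, against 7.40, 5.09, 6.56 and 6.08 RPKM in P0 1 to P0 4. The gap between the ages was small, with P8 1 just above P0 1, and the log2 fold change was 0.80 with a standard error of 0.19 (edgeR, adjusted p = 0.00566). Slc39a6, which encodes ZIP6, a partner of ZIP10, had 13.3, 12.9, 16.4 and 13.7 RPKM in P8 1 to P8 4, against 9.37, 11.6, 11.2 and 11.4 RPKM in P0 1 to P0 4. All P8 libraries were above all P0 libraries by a narrow margin, and the log2 fold change was 0.45 with a standard error of 0.12 (edgeR, adjusted p = 0.0113). Slc39a1, a plasma membrane importer found in most cells, had 58.6, 70.98, 59.3 and 57.5 RPKM in P8 1 to P8 4, against 57.1, 42.4, 47.8 and 52.2 RPKM in P0 1 to P0 4. P8 4 and P0 1 almost touched, P8 2 was high, and the log2 fold change was 0.39 with a standard error of 0.14 (edgeR, adjusted p = 0.0493). That call was lost in 11 of 13 alternatives, among them leaving out any of P8 1, P8 2, P8 3, P8 4, P0 2, P0 3 or P0 4, with adjusted p between 0.0505 and 0.146 (edgeR).

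The 4 ZIP genes called lower included the gene of the intestinal importer and genes of the secretory pathway. Slc39a4, whose human counterpart is mutated in a zinc deficiency of infancy, had 0.433, 0.588, 0.477 and 0.748 RPKM in P8 1 to P8 4, against 1.21, 2.81, 6.19 and 3.81 RPKM in P0 1 to P0 4. The level was low at P8 and scattered at P0, with P0 3 highest, yet the ages did not overlap, and the log2 fold change was -2.56 with a standard error of 0.46 (edgeR, adjusted p = 0.00129). Slc39a13, which releases zinc from vesicles and Golgi and whose human counterpart is mutated in a connective tissue disease, had 11.998, 14.2, 15.7 and 12.2 RPKM in P8 1 to P8 4, against 25.5, 23.7, 23.9 and 20.4 RPKM in P0 1 to P0 4. Every P8 library lay under every P0 library, and the log2 fold change was -0.71 with a standard error of 0.14 (edgeR, adjusted p = 0.00197). Slc39a14, an importer of zinc, manganese and iron not bound to transferrin, had 3.72, 4.24, 3.88 and 3.82 RPKM in P8 1 to P8 4, against 5.02, 7.57, 6.66 and 5.19 RPKM in P0 1 to P0 4. The P8 libraries were close together and under all P0 libraries, and the log2 fold change was -0.56 with a standard error of 0.16 (edgeR, adjusted p = 0.0166). Slc39a9, a zinc transporter of the secretory pathway, had 10.96, 12.1, 12.96 and 10.8 RPKM in P8 1 to P8 4, against 14.4, 21.4, 17.4 and 15.9 RPKM in P0 1 to P0 4. P0 2 was the highest library, no library crossed between the ages, and the log2 fold change was -0.48 with a standard error of 0.14 (edgeR, adjusted p = 0.0179). Without P8 1 or P8 4 the call was lost (edgeR, adjusted p = 0.0551 and 0.0567). Exons of Slc39a13 share 215 of 4869 bases with Psmc3, and exons of Slc39a9 127 of 5229 bases with Erh, each on the other strand, and neither neighbour was called (edgeR, adjusted p = 0.977 and 0.348). Col1a1, Col1a2 and Col3a1, collagen genes of meningeal and vascular cells, were lower at P8 too, with log2 fold changes of -3.23, -3.23 and -3.09. Of the same marker list, Rgs5, Acta2 and Tagln were not called. The part of these markers in the Slc39a13 difference was not tested.

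The other ZIP genes were not called. Slc39a7, which releases zinc from the endoplasmic reticulum, had 70.97, 77.8, 75.3 and 67.9 RPKM in P8 1 to P8 4, against 89.9, 91.8, 103 and 93.7 RPKM in P0 1 to P0 4. All P8 libraries lay under all P0 libraries, by a margin that the test did not call, and the log2 fold change was -0.29 with a standard error of 0.11 (edgeR, adjusted p = 0.0590). It was called lower in 4 of 13 alternatives, namely without P8 2 (edgeR, adjusted p = 0.0482), with DESeq2 size factors (0.0498), with library totals (0.0214) and by DESeq2 (0.0116). Its share of the ZIP sum was 22.6 ± 0.993% at P8 and 34.9 ± 1.52% at P0. Slc39a10, the gene of ZIP10, had 12.98, 16.6, 19.6 and 18.6 RPKM in P8 1 to P8 4, against 20.1, 21.6, 13.4 and 12.7 RPKM in P0 1 to P0 4. Both ages covered nearly the same range, and the log2 fold change was 0.07 with a standard error of 0.20 (edgeR, adjusted p = 0.788). Slc39a2 was at a very low level, with 0.322 ± 0.0401 RPKM at P8 and 0.169 ± 0.0771 RPKM at P0 (edgeR, adjusted p = 0.0848), and shares 151 of 3447 exon bases with Mettl17 on the same strand, a gene of 17.1 CPM at P8 and 18.3 CPM at P0. Slc39a5, not tested, had 6 to 24 reads in P8 libraries and 3 to 22 reads in P0 libraries. Summed over the 14 genes, the ZIP level was 323 ± 15.9 RPKM at P8 and 271 ± 6.42 RPKM at P0, a ratio of 1.19, with 304 RPKM as the lowest P8 library and 279.7 RPKM as the highest P0 library.

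**Figure D3:**
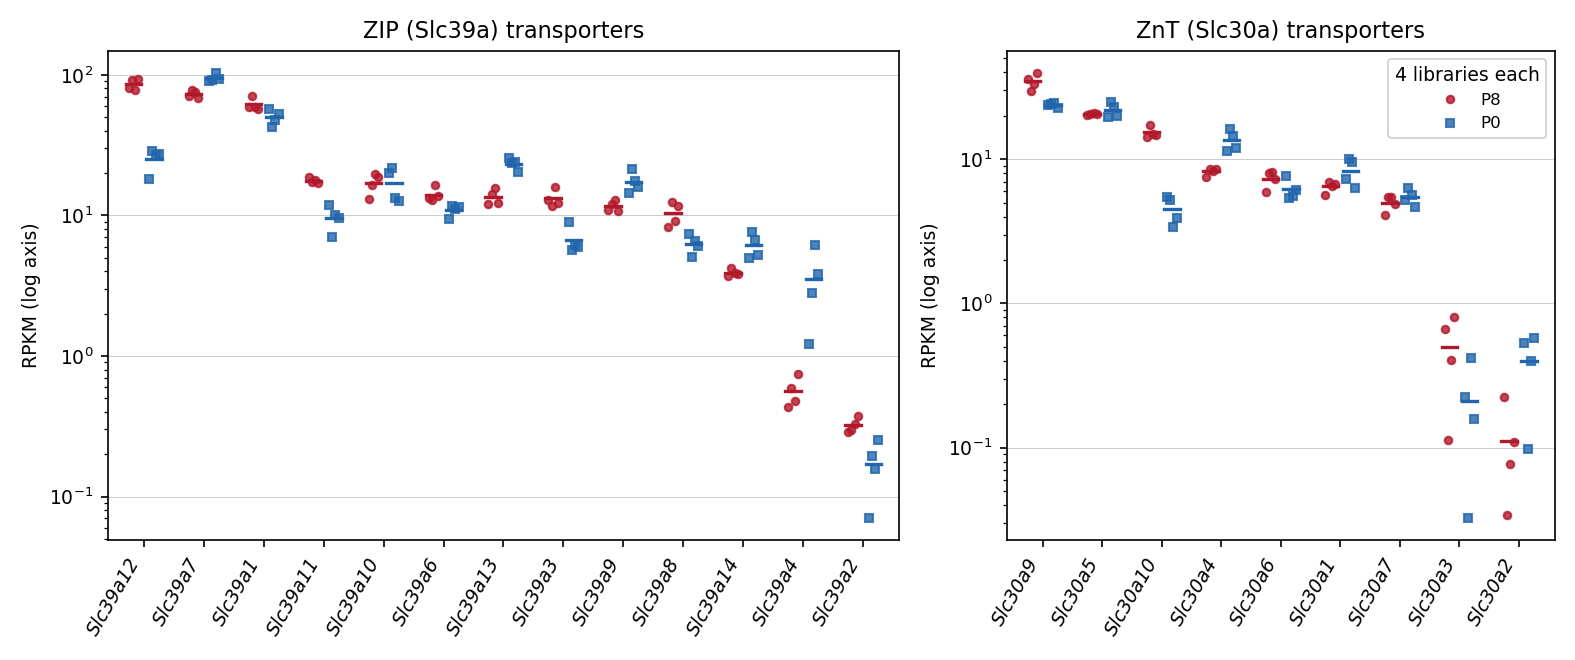
RPKM on a log axis of the 13 tested ZIP genes (left) and the 9 tested ZnT genes (right), ordered along the x axis by their P8 mean, with red circles for the 4 P8 libraries, blue squares for the 4 P0 libraries and a line at each mean. Slc39a12 and Slc30a10 stand out with all P8 libraries well above all P0 libraries, and Slc39a4 with all P8 libraries well under all P0 libraries.

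Of the 9 tested ZnT genes, 2 were called higher, 1 was called lower and 6 were not called. Of all tested genes, 24.5% were called higher and 25% lower. Slc30a10, which in mammals exports manganese from the cell and whose loss in people causes manganese overload, had 14.3, 17.4, 14.97 and 14.8 RPKM in P8 1 to P8 4, against 5.44, 5.25, 3.38 and 3.92 RPKM in P0 1 to P0 4. The ages were far apart, the log2 fold change was 1.85 with a standard error of 0.18 (edgeR, adjusted p = 3.85e-05), and the gene lies on chromosome 1, plus strand, from 187278727 to 187292641. Its share of the summed ZnT level was 15.7 ± 1.61% at P8 and 5.35 ± 1.17% at P0 (SD, n = 4 each). Slc30a9, linked to zinc export from mitochondria, had the highest ZnT mean at both ages, with 35.9, 29.9, 33.1 and 39.7 RPKM in P8 1 to P8 4, against 23.7, 24.3, 24.5 and 22.7 RPKM in P0 1 to P0 4. The P0 libraries were nearly equal and all under P8 2, the lowest P8 library, and the log2 fold change was 0.62 with a standard error of 0.11 (edgeR, adjusted p = 0.00149). Slc30a4, which moves zinc into endosomes and vesicles, had 7.55, 8.59, 8.33 and 8.53 RPKM in P8 1 to P8 4, against 11.4, 16.3, 14.4 and 11.9 RPKM in P0 1 to P0 4. Here every P8 library was under every P0 library, and the log2 fold change was -0.63 with a standard error of 0.14 (edgeR, adjusted p = 0.00389).

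The ZnT genes of the general export and secretory routes were not called. Slc30a1, the zinc exporter of the plasma membrane, had 5.68, 6.91, 6.57 and 6.75 RPKM in P8 1 to P8 4, against 7.29, 10.1, 9.65 and 6.29 RPKM in P0 1 to P0 4. P0 4 lay among the P8 libraries, and the log2 fold change was -0.28 with a standard error of 0.17 (edgeR, adjusted p = 0.192). Slc30a5, which forms a pair with Slc30a6 to fill the Golgi with zinc, had 20.3, 20.4, 20.8 and 20.7 RPKM in P8 1 to P8 4, against 19.6, 24.9, 22.9 and 19.95 RPKM in P0 1 to P0 4. The P8 values lay within the wider P0 range, and the log2 fold change was 0.00 with a standard error of 0.11 (edgeR, adjusted p = 0.979). Slc30a7, another zinc transporter of the Golgi, had 4.11, 5.47, 5.51 and 4.89 RPKM in P8 1 to P8 4, against 5.19, 6.31, 5.62 and 4.64 RPKM in P0 1 to P0 4. The ages overlapped throughout, and the log2 fold change was -0.04 with a standard error of 0.14 (edgeR, adjusted p = 0.822). Slc30a6 was at 7.33 ± 0.998 RPKM at P8 and 6.19 ± 1.01 RPKM at P0 (edgeR, adjusted p = 0.163).

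The ZnT genes of specialised cells were at very low levels. Slc30a3, which loads zinc into synaptic vesicles of neurons, was at 0.497 ± 0.305 RPKM at P8 and 0.209 ± 0.162 RPKM at P0 (edgeR, adjusted p = 0.169), and its lowest P8 library was P8 2. P8 2 was also the lowest P8 library for the summed neuron markers, of which 8 of 8 were called higher, with 81.1 to 573 CPM at P8 and 26.2 to 77.7 CPM at P0. Slc30a2, known for secreting zinc into milk, was at 0.111 ± 0.0813 RPKM at P8 and 0.401 ± 0.216 RPKM at P0 (edgeR, adjusted p = 0.0519) and was called lower in 6 of 13 alternatives. These were without P8 1 or P0 2 (edgeR, adjusted p = 0.0251 and 0.0175), with DESeq2 size factors (0.0492), library totals (0.0429) or the replicate block (0.0215), and by DESeq2 (0.0221). Slc30a8, the transporter of insulin granules, had 8 reads in P8 1, 3 in P8 3 and none in the other 6 libraries. At 0 reads the level could still be as high as 0.0427 and 0.0471 CPM in P8 2 and P8 4 and 0.0549 to 0.0977 CPM in P0 libraries, taking 3 counts as the limit and counting error alone. The summed ZnT level was 98.3 ± 3.77 RPKM at P8 and 84.2 ± 7.13 RPKM at P0, and in CPM the ages overlapped.

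Beyond these families, a list of 6 further zinc and manganese genes had 3 of 5 tested members higher and 1 lower at P8, where 24.5% and 25% of all tested genes were. Tmem163, a zinc-binding membrane protein of vesicles, averaged 12.3 ± 6.18 CPM at P8 and 0.584 ± 0.642 CPM at P0 (log2 fold change 4.41, edgeR adjusted p = 0.00183). Atp2c1, the Golgi pump for calcium and manganese, averaged 200.3 ± 12.7 CPM at P8 and 129 ± 21.9 CPM at P0 (log2 fold change 0.72, edgeR adjusted p = 0.00227). Trpm7, a channel for magnesium, calcium and zinc fused to a kinase, averaged 75.7 ± 7.73 CPM at P8 and 183 ± 50.9 CPM at P0 (log2 fold change -1.19, edgeR adjusted p = 0.000573).

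In copper transport, 3 of the 4 genes were lower at P8, where 25% of all tested genes were. Slc31a1, which encodes the copper importer CTR1, had 23.3, 26.5, 23.5 and 27.8 RPKM in P8 1 to P8 4, against 74.99, 125, 105 and 90.9 RPKM in P0 1 to P0 4. The P8 libraries were nearly equal and all far under the P0 libraries, and the log2 fold change was -1.88 with a standard error of 0.17 (edgeR, adjusted p = 2.13e-05). Slc31a2, its relative in endosomes and lysosomes, had 3.98, 4.95, 3.79 and 4.07 RPKM in P8 1 to P8 4, against 18.1, 16.2, 13.3 and 14.1 RPKM in P0 1 to P0 4. The same separation was seen, and the log2 fold change was -1.79 with a standard error of 0.18 (edgeR, adjusted p = 3.63e-05). Both lie on the plus strand of chromosome 4 and are close neighbours, Slc31a2 at 61923596 to 61959445 and Slc31a1 at 62021761 to 62052803. Atp7a, the copper pump that loads secreted copper enzymes and exports copper, and that is mutated in Menkes disease in people, had 2.11, 3.004, 2.46 and 2.87 RPKM in P8 1 to P8 4, against 16.02, 34.7, 26.6 and 17.1 RPKM in P0 1 to P0 4. Its P0 libraries spread widely, with P0 2 highest, but the lowest was far above every P8 library. Its log2 fold change was -3.09 with a standard error of 0.26 (edgeR, adjusted p = 1.67e-05), so that the fitted level at P0 was 8.51 times that at P8, and the gene lies on chromosome X, plus strand, from 103222615 to 103320265.

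Atp7b, the other copper pump, mutated in Wilson disease in people, did not share the pattern. It was at 3.61 ± 0.605 RPKM at P8 and 2.57 ± 0.719 RPKM at P0, P0 3 lay among the P8 libraries, and the log2 fold change was 0.57 with a standard error of 0.23 (edgeR, adjusted p = 0.0612). The distance between the pumps followed: the mean of Atp7b was above that of Atp7a at P8, with 3.61 against 2.61 RPKM, and under it at P0, with 2.57 against 23.6 RPKM. This difference between the pumps was not tested.

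The ferroxidases, copper enzymes that oxidise iron as it leaves cells, were also lower at P8. Cp, which encodes ceruloplasmin, had 2.07, 3.32, 4.19 and 3.28 RPKM in P8 1 to P8 4, against 31.2, 28.1, 28.5 and 26.2 RPKM in P0 1 to P0 4. All P0 libraries were far above all P8 libraries, the log2 fold change was -3.07 with a standard error of 0.20 (edgeR, adjusted p = 4.42e-06), and the gene lies on chromosome 3, plus strand, from 19857054 to 19909145. Heph, which encodes hephaestin, the ferroxidase bound to the membrane, had 3.47, 3.55, 4.26 and 4.76 RPKM in P8 1 to P8 4, against 14.8, 19.2, 20.4 and 17.9 RPKM in P0 1 to P0 4. The ages were again far apart, the log2 fold change was -2.10 with a standard error of 0.14 (edgeR, adjusted p = 5.41e-06), and the gene lies on chromosome X, plus strand, from 93650698 to 93769824. Exons of Cp share 108 of 9566 bases with Hps3 on the other strand, and exons of Heph 29 of 7662 bases with Hsf3. Reads there cannot be assigned, because the library kit does not mark strand, but Hps3 was at 31.9 CPM at P8 and 35.5 CPM at P0 and not called (edgeR, adjusted p = 0.754), and Hsf3 was at 0.0595 CPM at P8 and 0.195 CPM at P0.

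Choroid plexus markers were lower at P8, as these 5 genes were. Astrocyte markers (9 of 10) and microglia and macrophage markers (8 of 10) were called higher at P8. The summed choroid plexus markers were 948, 958, 206 and 3131 CPM in P8 1 to P8 4, against 29237, 27348, 43857 and 65323 CPM in P0 1 to P0 4. Most of each P0 sum was Ttr, at 26909, 22940, 39405 and 61703 CPM in P0 1 to P0 4. Within P0, none of the 5 genes shared the order of the sums. Slc31a1 and Atp7a had the order of the markers Clic6, Otx2 and Kl, highest in P0 2, then P0 3, P0 4 and P0 1. By library number, Clic6 had 676, 1500, 1389 and 1040 CPM at P0, and Otx2 had 99.8, 181, 166 and 131 CPM. The summed ependymal markers had this order too, with 189, 527, 375 and 334 CPM in P0 1 to P0 4. Of these 6 markers, 4 were called lower and 2 higher at P8. With 4 libraries per age such orders are descriptions. The choroid plexus markers Ttr, Folr1, Aqp1, Slc4a5, Kcne2 and Prlr ran in other orders. Slc31a2 and Cp were highest in P0 1, where Clic6 and Otx2 were lowest. Heph had the order of Aqp1 and Slc4a5, highest in P0 3, then P0 2, P0 4 and P0 1. Endothelial and meningeal markers were lower at P8 as well. The part of these markers in the copper and ferroxidase differences was not tested.

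**Figure D4:**
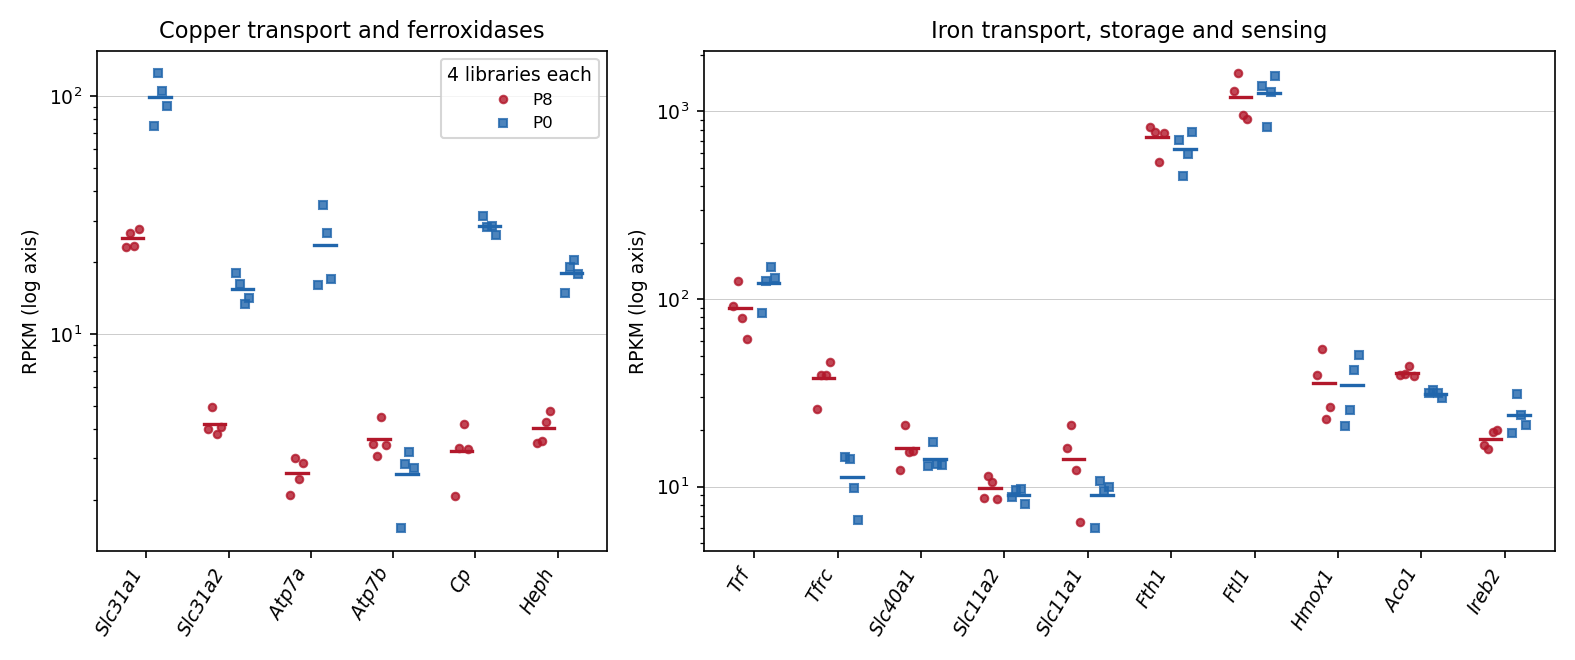
RPKM on a log axis of the copper transport and ferroxidase genes (left) and of the iron transport, storage and sensing genes (right), with red circles for the 4 P8 libraries, blue squares for the 4 P0 libraries and a line at each mean. On the left 5 of 6 genes have all P8 libraries far under all P0 libraries, and on the right Tfrc and Aco1 have all P8 libraries above all P0 libraries.

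Other copper genes were read from 2 lists. Of 11 copper chaperones and metalloreductases, none was called higher and 2 were called lower, both of the STEAP family, which reduces copper and iron. Of all tested genes 49.5% were called. Steap4 averaged 0.974 ± 0.615 CPM at P8 and 48.9 ± 11.5 CPM at P0 (log2 fold change -5.55, edgeR adjusted p = 1.32e-05). Steap2 averaged 14.2 ± 3.43 CPM at P8 and 58.9 ± 28.5 CPM at P0 (log2 fold change -1.97, edgeR adjusted p = 0.000758). The remaining 9, among them the chaperones that hand copper to the pumps, to superoxide dismutase and to mitochondria, were not called.

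Of 10 tested copper-dependent enzymes, 7 were lower and 1 was higher, where 25% and 24.5% of all tested genes were. Lox, the lysyl oxidase that crosslinks collagen, averaged 3.65 ± 1.32 CPM at P8 and 205 ± 68.4 CPM at P0 (log2 fold change -5.74, edgeR adjusted p = 5.23e-06). Moxd1, a monooxygenase-like protein, averaged 3.53 ± 1.17 CPM at P8 and 129.8 ± 32.6 CPM at P0 (log2 fold change -5.12, edgeR adjusted p = 4.24e-06). Loxl2, a relative of Lox, averaged 9.30 ± 2.47 CPM at P8 and 88.0 ± 11.9 CPM at P0 (log2 fold change -3.17, edgeR adjusted p = 4.42e-06). Pam, which amidates peptide hormones, was the 1 called higher, at 129 CPM at P8 and 95.2 CPM at P0 (log2 fold change 0.52, edgeR adjusted p = 0.00578). Lox, Loxl2 and the other lysyl oxidases act on the collagens of connective tissue, whose genes were among the meningeal and vascular markers lower at P8, and the part of such cells was not tested.

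Iron uptake was called at the receptor and not at its ligand. Tfrc, which encodes the transferrin receptor, had 26.01, 39.2, 39.5 and 46.5 RPKM in P8 1 to P8 4, against 14.3, 14.05, 9.87 and 6.67 RPKM in P0 1 to P0 4. P8 1 was the lowest P8 library and still above every P0 library, the log2 fold change was 1.83 with a standard error of 0.27 (edgeR, adjusted p = 0.000380), and the gene lies on chromosome 16, plus strand, from 32609006 to 32632880. Trf, which encodes transferrin and is made in the brain by the choroid plexus and by oligodendrocytes, had 91.7, 124, 79.6 and 61.1 RPKM in P8 1 to P8 4, against 84.7, 124, 147 and 130.0 RPKM in P0 1 to P0 4. The ages overlapped, and the log2 fold change was -0.35 with a standard error of 0.25 (edgeR, adjusted p = 0.264). Of 7 tested myelin and oligodendrocyte markers, 5 were called higher, with a sum of 2162, 630, 2150 and 2459 CPM in P8 1 to P8 4, against 161 to 373 CPM in P0 libraries, and Mobp, Mog and Opalin were at 0 in some libraries. Of 6 oligodendrocyte precursor markers, 3 were called higher and 1 lower, with a sum of 517 to 1588 CPM at P8 and 499 to 649 CPM at P0. Trf had the library order of the microglia and macrophage markers given below at P8 but not at P0, and that of neither the choroid plexus nor the myelin markers at P8. Developing red cells are known for Tfrc. The 6 tested erythroid markers were all called lower at P8, and the summed level was 91.6 to 199 CPM at P8 and 266 to 619 CPM at P0. Among them, Hba-a1 and Hba-a2 had the same value in every library, so they repeat each other in the count and in the sum. The part of these cell types in the Trf and Tfrc values was not tested.

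The remaining iron transporters were not called. Slc11a2, the iron importer DMT1 of the plasma membrane and endosome, had 8.76, 11.5, 10.6 and 8.56 RPKM in P8 1 to P8 4, against 8.87, 9.57, 9.76 and 8.12 RPKM in P0 1 to P0 4. The ages overlapped, and the log2 fold change was 0.20 with a standard error of 0.14 (edgeR, adjusted p = 0.257). Slc40a1, the iron exporter ferroportin, had 12.2, 21.2, 15.3 and 15.5 RPKM in P8 1 to P8 4, against 12.8, 17.4, 13.2 and 13.1 RPKM in P0 1 to P0 4. P8 2 and P0 2 were each the highest of their age, the ages overlapped, and the log2 fold change was 0.27 with a standard error of 0.19 (edgeR, adjusted p = 0.258). Slc11a1, the NRAMP1 transporter of macrophage phagosomes, had 16.2, 21.3, 12.4 and 6.46 RPKM in P8 1 to P8 4, against 6.03, 10.7, 9.52 and 9.98 RPKM in P0 1 to P0 4. P8 4 lay among the P0 libraries, and the log2 fold change was 0.74 with a standard error of 0.34 (edgeR, adjusted p = 0.103). Without P8 4 it was called higher (edgeR, adjusted p = 0.0139).

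Transcripts of Tfrc, ferritin and ferroportin carry iron-responsive elements, hairpins bound by the iron regulatory proteins when iron is scarce, which in textbook accounts stabilises Tfrc transcripts and blocks translation of the others. They are printed because they tie together the iron genes whose levels are set side by side here. The search took a C, 5 bases, the loop CAGTGN with N not G, and 5 bases that pair with the first 5 (G to T pairs allowed), on the sense strand of GENCODE M1 transcripts. It found such a hairpin in a UTR of 4 of the 43 metal genes and of 113 of all 22611 genes searched (0.5%), 22 of them in a 5′ UTR and 92 in a 3′ UTR. A match is a description of letters and not a tested site. A hairpin with an unpaired base among the 5 pairs is missed by this search, so a gene without a match may still carry an element. Each line gives 29 bases, 5′ to 3′ on the transcript's strand, with the loop in capitals.
Fth1 5′ UTR, chr19:10057222-10057250, plus strand: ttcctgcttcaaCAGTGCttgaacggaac
Ftl1 5′ UTR, chr7:52715149-52715177, minus strand: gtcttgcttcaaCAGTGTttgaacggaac
Slc40a1 5′ UTR, chr1:45982310-45982338, minus strand: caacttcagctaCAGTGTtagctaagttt
Tfrc 3′ UTR, chr16:32631305-32631333, plus strand: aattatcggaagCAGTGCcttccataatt
Tfrc 3′ UTR, chr16:32631684-32631712, plus strand: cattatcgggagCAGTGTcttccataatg
Tfrc 3′ UTR, chr16:32631749-32631777, plus strand: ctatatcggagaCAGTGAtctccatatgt
Tfrc 3′ UTR, chr16:32631796-32631824, plus strand: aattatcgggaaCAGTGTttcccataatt
Tfrc, with 4 hairpins in its 3′ UTR, was called higher at P8, and Fth1, Ftl1 and Slc40a1, with 1 each in the 5′ UTR, were not called. Counts of transcripts do not show translation, through which the 5′ hairpins act.

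Ferritin transcripts, among the most abundant of all 43, did not separate the ages. Fth1, the heavy subunit that oxidises iron for storage, had 828, 782, 540.1 and 769.8 RPKM in P8 1 to P8 4, against 709, 452, 590.2 and 779.7 RPKM in P0 1 to P0 4. P8 3 and P0 2 were the low libraries, the ages overlapped, and the log2 fold change was 0.29 with a standard error of 0.22 (edgeR, adjusted p = 0.292). Ftl1, the light subunit, had 1293, 1594, 958 and 916 RPKM in P8 1 to P8 4, against 1365, 831, 1264 and 1554 RPKM in P0 1 to P0 4. The ranges were nearly the same, and the log2 fold change was 0.02 with a standard error of 0.26 (edgeR, adjusted p = 0.964). Ftl1 stood at 1.64 ± 0.358 times Fth1 at P8 and at 1.98 ± 0.128 times at P0 (SD, n = 4 each), with overlap. Both genes have near-identical processed copies in the mouse genome, so their counts are uncertain where reads could be split.

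The sensors of iron divided into 1 called gene and 1 not called. Aco1, which encodes iron regulatory protein 1, the form that doubles as cytosolic aconitase, had 39.3, 39.7, 44.1 and 39.02 RPKM in P8 1 to P8 4, against 31.4, 32.7, 31.5 and 29.6 RPKM in P0 1 to P0 4. All P8 libraries were above all P0 libraries, P8 3 was the highest, and the log2 fold change was 0.45 with a standard error of 0.10 (edgeR, adjusted p = 0.00500). Ireb2, which encodes iron regulatory protein 2, had 16.7, 15.9, 19.6 and 19.9 RPKM in P8 1 to P8 4, against 19.4, 31.2, 24.1 and 21.2 RPKM in P0 1 to P0 4. The ages overlapped by a narrow margin through P0 1, and the log2 fold change was -0.33 with a standard error of 0.15 (edgeR, adjusted p = 0.101). Without P0 1 it was called lower (edgeR, adjusted p = 0.0471). Hmox1, the inducible enzyme that frees iron from haem, had 39.6, 54.2, 22.96 and 26.7 RPKM in P8 1 to P8 4, against 21.04, 25.6, 41.9 and 50.2 RPKM in P0 1 to P0 4. Each age held high and low libraries over nearly the same range, and the log2 fold change was 0.15 with a standard error of 0.35 (edgeR, adjusted p = 0.743).

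Some of the spread in the iron genes ran beside that of microglia. The summed level of 10 microglia and macrophage markers, of which 8 were called higher at P8, was 3717, 5249, 2566 and 1506 CPM in P8 1 to P8 4, against 473, 860, 1348 and 1406 CPM in P0 1 to P0 4. Slc11a1 and Ftl1 had the same order of P8 libraries as the markers, P8 2 highest, then P8 1, P8 3 and P8 4. Hmox1 had P8 2 and P8 1 highest and the order of the markers in all P0 libraries. The order did not carry over to P0 for Slc11a1, which was highest in P0 2, nor for Ftl1, which was lowest there. With 4 libraries per age these orders are descriptions, and the part of microglia in the values was not tested.

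**Figure D5:**
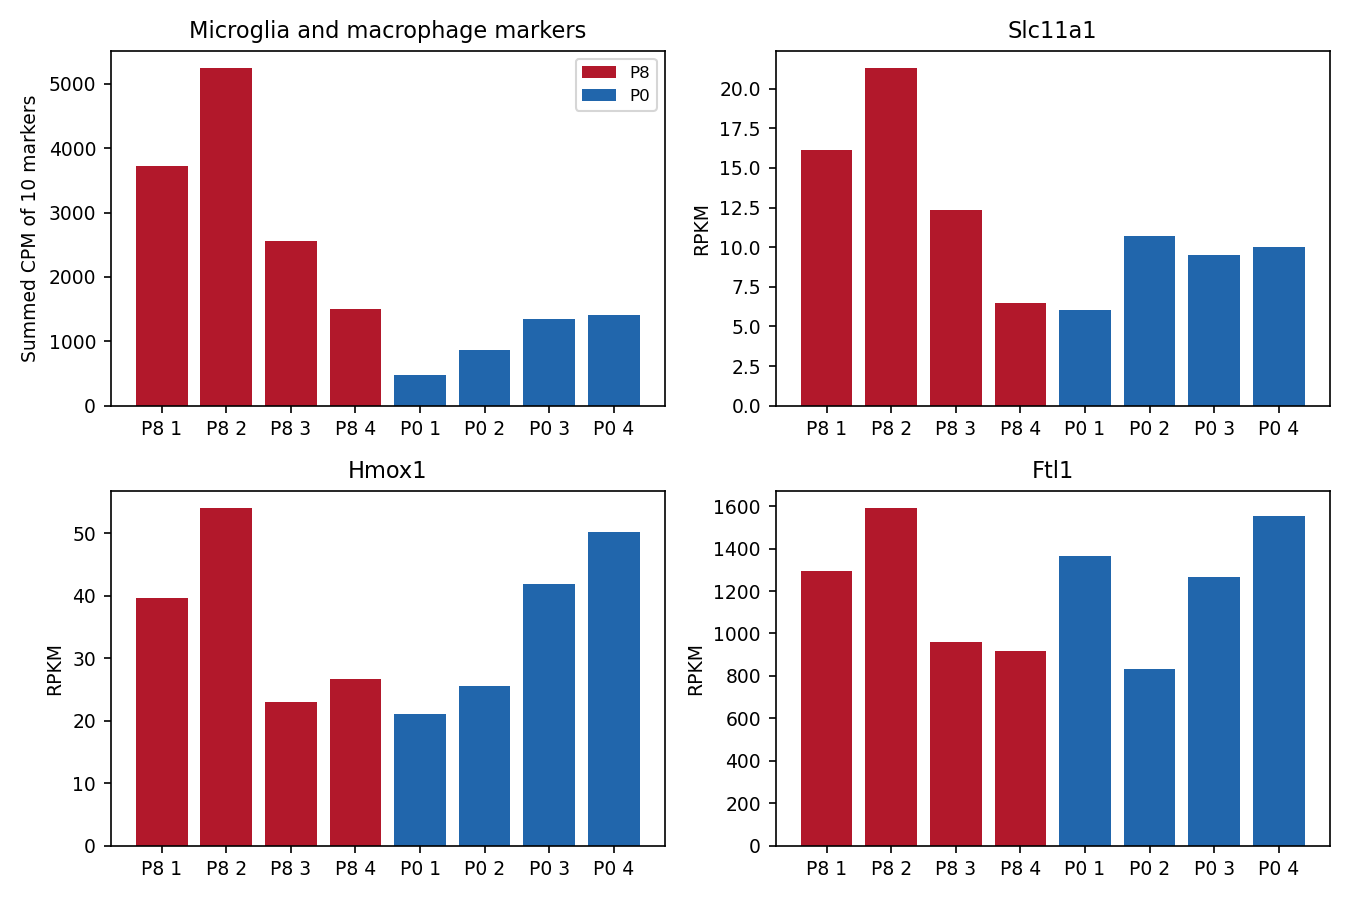
Summed CPM of 10 microglia and macrophage markers and RPKM of Slc11a1, Hmox1 and Ftl1 (y axes, from 0) in each of the 4 P8 (red) and 4 P0 (blue) libraries. At P8 the bars of Slc11a1 and Ftl1 follow the order of the marker bars, highest in P8 2 and lowest in P8 4, and at P0 those of Hmox1 do.

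Of 11 tested genes that regulate iron in the body or the cell, 1 was called higher and 4 lower, close to the 49.5% called of all tested genes. Bmp6, the signal that induces hepcidin in liver, averaged 8.91 ± 4.07 CPM at P8 and 165 ± 17.9 CPM at P0 (log2 fold change -4.15, edgeR adjusted p = 8.00e-06). Tmprss6, the protease that restrains hepcidin, averaged 0.218 ± 0.269 CPM at P8 and 12.9 ± 4.83 CPM at P0 (log2 fold change -5.83, edgeR adjusted p = 0.000236). Ncoa4, which delivers ferritin to lysosomes for breakdown, averaged 189 ± 9.35 CPM at P8 and 151 ± 12.5 CPM at P0 (log2 fold change 0.40, edgeR adjusted p = 0.0161). The hepcidin gene Hamp averaged 0.115 CPM at P8 and 0.0276 CPM at P0, too few reads to be tested.

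Ranked by mean RPKM, the top of the order was shared by the ages in part. At P8 it ran Ftl1, Mt3, Fth1, Mt1 and Mt2, with 1190.2, 1149, 730.0, 337 and 154 RPKM, and the ranges of Ftl1 and Mt3, and of Mt3 and Fth1, overlapped. At P0 it ran Ftl1, Fth1, Mt1, Mt3 and Trf, with 1254, 633, 237, 189 and 122 RPKM, and the ranges of Mt1 and Mt3, and of Mt3 and Trf, overlapped. Slc31a1 came next at P0, overlapping Trf, whereas at P8 it ranked under 13 other genes. At the bottom at both ages were Slc39a2, Slc30a2, Slc30a3, Slc39a5 and Slc30a8, none above 1 RPKM in any library.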

How the data were processed

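RNA came from 8 libraries of GLAST-sorted brain cells, 4 at P8 and 4 at P0. Per the labels' protocols, it was extracted with a PicoPure kit, and TruSeq RNA v2 libraries, which carry no strand information, were prepared from it. The submitters' processing notes name TopHat and mm9. The read counter, its settings and the annotation were not given in the sources used here. Whole-number counts per gene were deposited by the authors in 1 table. Its deposited CPM equalled count over column total and its deposited RPKM equalled CPM over gene length in kilobases, within a relative 1e-10. The authors' own comparison in that table was not used here.

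The test was edgeR 4.0.16 (R 4.3.3) on the counts as deposited, over all 8 libraries and with no covariate. filterByExpr (minimum count 10, minimum total 15) kept 16808 of 23284 genes, while 3225 lacked reads in all libraries. TMM, glmQLFit and the two-sided glmQLFTest followed, with Benjamini-Hochberg adjustment over all tested genes and calls at 0.05. Each standard error was derived from the gene's F statistic. The common biological coefficient of variation was 30.6%. Errors are SD over 4 libraries. Depth was 30708719 to 94308235 counts, and 3 counts equal 0.0318 to 0.0977 CPM. Floors cover counting error only, since reads are not independent molecules. Only the edgeR step was tested on simulated counts, with fewer changed genes and a smaller spread than in these data.

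Each of the 43 genes is named, with values by library where the higher age mean reached 20 CPM, or 1 CPM with a called change of at least 4-fold. From each related list the text names up to 3 called genes, those with the largest change among genes that reached 5 CPM at either age. A gene that this rule gives is not reported here. Mtf1, Pam and Hamp, outside this rule, were named after their values were seen. The genes, lists and rules were chosen with earlier results on these data known. Summed levels and lists are descriptions without a test. Positions are GENCODE M1 spans on NCBIM37, with 42 of 43 symbols matched to 1 gene (Trf matched 2). Exons of 7 genes (Cp, Heph, Slc11a2, Slc30a1, Slc39a2, Slc39a9 and Slc39a13) overlap another gene, and reads there cannot be told apart. Alternatives were DESeq2 1.42.0 (its test, and its size factors in edgeR), library totals, no filter, a replicate block, leaving out each library, and CPM for RPKM in sums.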

Additional observations from a re-analysis of the deposited data

Results flagged for a closer look

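Of 82 groups of 4 libraries (41 tested genes at each age), 5 had a library far from the other 3 in RPKM, by a gap above Dixon's 95% critical value. Chance gives about 1 in 20 groups. Aco1 stood at 44.1 RPKM in P8 3, with 39.7 RPKM in the nearest P8 library. Mt1 stood at 229 RPKM in P8 3, under the 365 RPKM of the nearest P8 library. Slc39a1 stood at 71.0 RPKM in P8 2, with 59.3 RPKM in the nearest P8 library. Slc39a3 stood at 8.91 RPKM in P0 1, with 6.12 RPKM in the nearest P0 library. Slc40a1 stood at 17.4 RPKM in P0 2, with 13.2 RPKM in the nearest P0 library.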

How the results depend on the processing

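Over 13 alternatives, 10 to 11 of the metal genes were called higher and 9 to 12 lower, and 19 of the 21 called genes kept their direction and their call in each. Slc39a1 lost its call in 11 alternatives and Slc39a9 without P8 1 or without P8 4, and 0 called genes reversed. Of the 20 genes not called, 5 were called in some alternative (Ireb2, Mt2, Slc11a1, Slc30a2 and Slc39a7). The median log2 fold change of the tested metal genes, 0.20, was 0.12 with library totals and 0.083 to 0.29 with 1 library left out, lowest without P8 2, and the cause was not tested. With library totals the median of all tested genes was -0.037. Reversals of sign were limited to 5 genes not called. With library totals, Ftl1 stood at -0.075 and Slc39a10 at -0.0023, and without the filter Slc30a5 stood at 0.0089. With 1 library left out, Ftl1 ran between -0.19 and 0.14, Hmox1 between -0.15 and 0.39, Slc30a5 between -0.045 and 0.063, Slc30a7 between -0.11 and 0.036 and Slc39a10 between -0.042 and 0.21. With the replicate block, 10 genes were higher and 11 lower, and Ftl1 (-0.0027) and Slc30a5 (0.0010) had the other sign. Same-numbered libraries did not deviate together (correlations -0.13 to 0.064, none best with its own number). The labels do not say what the numbers stand for, and with 4 libraries per age these correlations cannot exclude a pairing. Genes under 1 RPKM rest on few reads.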

Other observations

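Haem handling and the mitochondrial use of iron were read from lists of related genes. Of 16 tested haem genes, 3 were called higher and 6 lower at P8 (edgeR), where 49.5% of all tested genes were called. Abcg2, an exporter of haem and porphyrins, averaged 31.3 ± 5.51 CPM at P8 and 114 ± 31.5 CPM at P0 (log2 fold change -1.79, edgeR adjusted p = 0.000143). Alad, the enzyme of an early step of haem synthesis, averaged 21.6 ± 1.47 CPM at P8 and 47.05 ± 10.96 CPM at P0 (log2 fold change -1.05, edgeR adjusted p = 0.00115). Blvrb, a biliverdin reductase, averaged 25.3 ± 5.32 CPM at P8 and 14.6 ± 5.69 CPM at P0, with overlap between the ages (log2 fold change 0.88, edgeR adjusted p = 0.0365). Abcg2 is also a marker of brain endothelium, whose markers were lower at P8 (8 of 9), and their part was not tested.

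Of 10 genes of mitochondrial iron and iron-sulphur clusters, 3 were called higher and 1 lower, against 49.5% of all tested genes called in either direction. Isca1, an assembly factor of iron-sulphur clusters, averaged 61.7 ± 2.75 CPM at P8 and 154 ± 25.8 CPM at P0 (log2 fold change -1.23, edgeR adjusted p = 6.60e-05). Lyrm4, a partner of the cysteine desulphurase Nfs1, averaged 20.7 ± 2.93 CPM at P8 and 7.92 ± 3.36 CPM at P0 (log2 fold change 1.47, edgeR adjusted p = 0.00346).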
